A study of Mus musculus with 12 samples.

Results

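Costimulatory receptors are surface proteins that add to the signal of the T cell antigen receptor, and 8 of their genes are described here out of 13283 in the table. They were taken by gene symbol, and each had 1 entry. The TNF receptor (TNFR) members were Tnfrsf9 (CD137), Tnfrsf4 (OX40), Tnfrsf18 (GITR), Tnfrsf1b (TNFR2) and Cd27. The CD28 family members were Cd28 and Icos, and Cd226 encodes a related immunoglobulin-like adhesion and costimulatory receptor.

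RNA sequencing was of cytotoxic T lymphocytes (CTL) grown from female mice aged 11 to 27 weeks, in 4 groups of 3 libraries. WT CTL came from GzmB cre+ mice with no floxed allele. FOXO1-GFP KO CTL came from FOXO1-GFPfl/fl Gzmb cre+ mice, in which a floxed exon of Foxo1 that carries a GFP tag is removed by Cre from the granzyme B promoter, so deletion needs effector differentiation and both genotypes carry Cre. All cells were activated for 48 h with antibodies to CD3 and to CD28, the product of the member Cd28. Activation and the later expansion were in medium that held 20 ng/mL of the cytokine IL-2 together with IL-12 at 2 ng/mL. For the last 24 h the cells were kept with 10 µM of IC87114, an inhibitor of the kinase PI3K p110δ (PI3Kdi), or with the vehicle control DMSO. Groups described as without PI3Kdi are thus vehicle-treated. KO cells were sorted as live CD8+GFP- and WT cells as live CD8+. The GFP gate was therefore applied to one genotype only, and gate and genotype cannot be told apart. Replicates are called biological in the labels, but no label says which libraries came from 1 mouse.

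TNFR members bind trimeric ligands of the TNF superfamily and recruit TRAF adaptors, which switch on NF-kB and favour survival of activated T cells. CD28 and ICOS bind B7-type ligands and carry a tyrosine motif in their cytoplasmic tail that binds PI3K once phosphorylated. PI3K p110δ acts through AKT to keep the transcription factor FOXO1 out of the nucleus, so PI3Kdi and FOXO1 loss bear on opposite ends of one pathway.

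The coding stretch around the PI3K-binding tyrosine motif of Cd28 and Icos is shown because these receptors signal through the enzyme family that PI3Kdi blocks, and because their mRNA differed most between genotypes. Each run has 48 coding bases of the plus strand (GENCODE M21, GRCm38), with the 12 bases that code for the motif in capitals. The Cd28 run lies at chr1:60769675-60769722 and the Icos run at chr1:60995542-60995589, both in exon 4 of the gene's longest coding transcript.
Cd28: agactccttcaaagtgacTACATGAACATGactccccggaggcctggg
Icos: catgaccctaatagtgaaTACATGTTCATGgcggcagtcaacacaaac
The motif starts at codon 189 in Cd28 and at codon 181 in Icos.

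Promoter sequence is shown for Tnfrsf4, Tnfrsf18 and Cd27, the members with an adjusted p under 0.05 for PI3Kdi in KO CTL once pairs of libraries were modelled (below). The runs are the bases ahead of the RefSeq start (GRCm38.p6) that lie outside annotated exons. They lie at chr4:156013611-156013694 (plus strand), chr4:156026072-156026163 (plus strand) and chr6:125237028-125237277 (minus strand).
Tnfrsf4: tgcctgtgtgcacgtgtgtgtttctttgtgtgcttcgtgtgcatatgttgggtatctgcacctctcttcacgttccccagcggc
Tnfrsf18: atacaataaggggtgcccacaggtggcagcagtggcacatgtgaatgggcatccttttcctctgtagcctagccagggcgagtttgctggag
Cd27: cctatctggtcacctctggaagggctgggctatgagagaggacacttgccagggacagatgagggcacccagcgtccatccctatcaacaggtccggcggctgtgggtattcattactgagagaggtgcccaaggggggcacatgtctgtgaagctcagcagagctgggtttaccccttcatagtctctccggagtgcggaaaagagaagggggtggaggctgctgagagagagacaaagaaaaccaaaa
RefSeq gave 6 promoter windows of 300 bases for 5 of the 8 members and none for Cd28, Icos and Cd226, to which the motif counts do not apply. The FOXO motif GTAAACA, searched on both strands, was in 0 of these 6 windows and in 3.65% of all 32851 windows. The NF-kB consensus was in 1 of the 6 and in 5.81% of all. That match was in the downstream of the 2 Tnfrsf9 windows, in a run at chr4:150927947-150927976 (plus strand) that lies in an annotated exon. The 11 capital bases hold 2 overlapping matches.
Tnfrsf9: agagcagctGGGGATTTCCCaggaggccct
A match is a description of letters and not a measured binding site.

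The libraries held an estimated 12.9 M to 48.0 M reads each. All 8 listed CD8 T cell genes were present and summed to 8687 to 12638 FPKM. Most of this was Gzmb, at 7317 to 10955 FPKM, while Cd8a was at 139 to 253 FPKM. Of markers of other cells, all 3 CD4 T cell genes (summed 4.96 to 8.24 FPKM, Cd4 itself 0.09 to 0.95), 2 of 3 regulatory T cell genes (124 to 214, nearly all Il2ra, which activated CTL also express), 3 of 8 B cell genes (4.31 to 19.5), 2 of 4 NK cell genes (84.05 to 114, mostly Eomes, also expressed by CD8 T cells) and 3 of 8 myeloid genes (0.24 to 0.76) were in the table. Foxp3, Ms4a1, Ncr1 and Lyz2 were among those that were not. Foxo1 was 9.99, 5.77 and 5.79 FPKM in WT and 0.58, 1.08 and 1.44 FPKM in KO CTL. With PI3Kdi it was 10.5, 5.84 and 7.50 FPKM in WT and 0.61, 1.06 and 1.75 FPKM in KO CTL, so the libraries of the genotypes did not overlap. FPKM values are scaled to exon length and library size, so levels can be compared between genes.

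Tnfrsf9 was the most abundant member in WT CTL, at 322 ± 23.5 FPKM (SD, n = 3), and ranked 163 of all 13283 genes by mean level over the 12 libraries. Tnfrsf18 came next at 80.9 ± 7.73 FPKM. Tnfrsf1b (40.0 ± 10.0 FPKM), Icos (38.6 ± 14.3 FPKM) and Cd28 (27.6 ± 10.7 FPKM) followed, and each of these overlapped its neighbour in the order between libraries. The lowest were Cd27 (8.62 ± 2.38 FPKM), Cd226 (7.86 ± 1.72 FPKM) and Tnfrsf4 (5.61 ± 1.53 FPKM), which also overlapped. The order had 3 gaps without overlap, below Tnfrsf9, below Tnfrsf18 and below Cd28. The fewest estimated reads for any member in a library were 117, for Tnfrsf4, which gives a counting error of 9.25%. The same figure was 1.09% or less for Tnfrsf9.

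**Figure D1:**
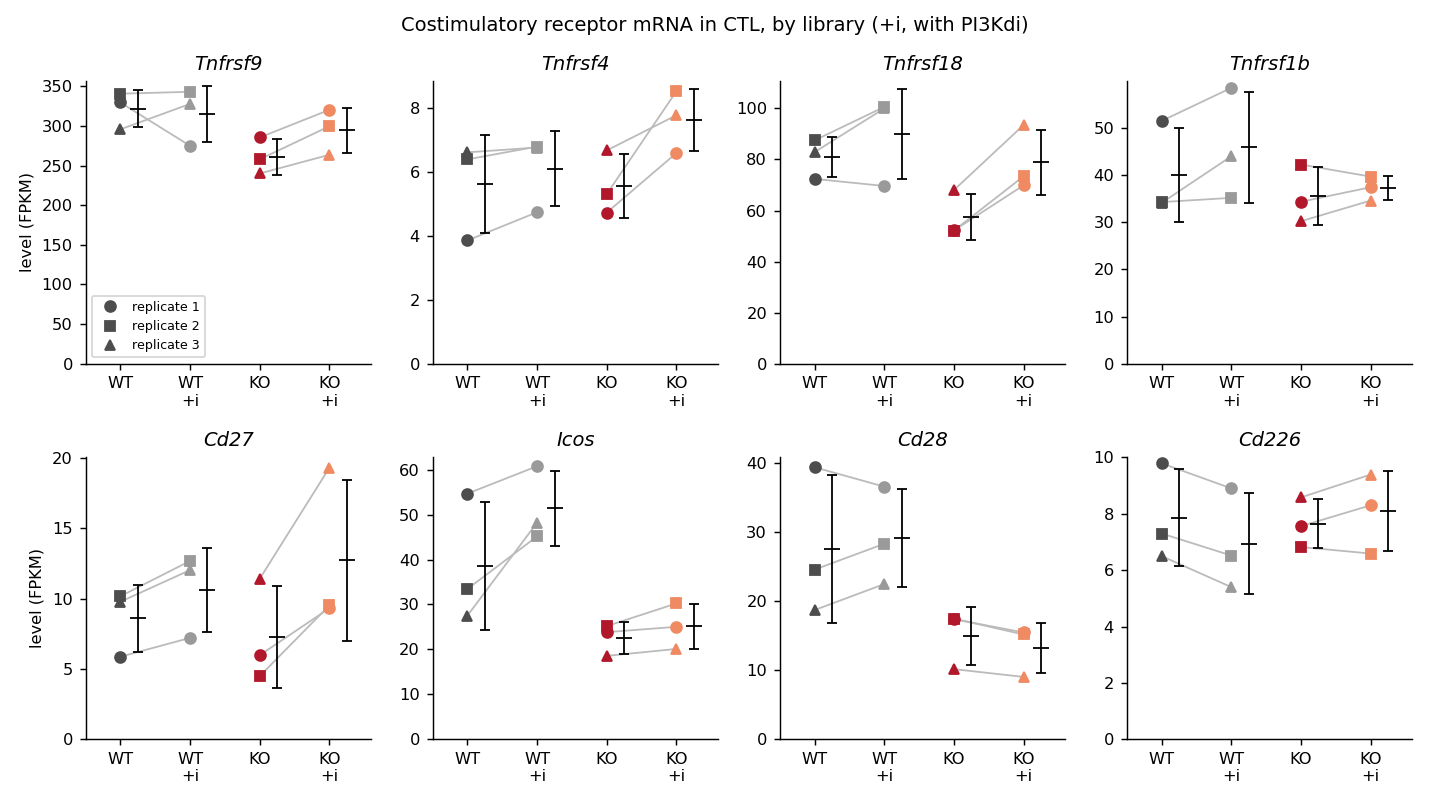
Level in FPKM (vertical axis, from 0) of the 8 receptor mRNAs in each library of the 4 groups (horizontal axis: WT, WT with PI3Kdi, KO, KO with PI3Kdi). Symbols are replicates 1 to 3, grey lines join equal replicate numbers of 1 genotype, and black marks are the mean ± SD (n = 3). Cd28 lies at 17.5 FPKM or less in all KO libraries and at 18.7 FPKM or more in all WT libraries.

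The first question was how PI3Kdi acted on these mRNAs in WT CTL, where FOXO1 was present. The comparisons that follow share libraries, so their values are set side by side and are not independent. A difference was called at an adjusted p under 0.05 over all genes (limma, Benjamini-Hochberg) and a fold change above 1.5. Differences were taken between values of log2(FPKM + 0.1), so that those of low genes come out too small. In these bulk samples fewer expressing cells and less RNA per cell cannot be told apart. No receptor was called in WT CTL (0 of 8, against 0.0979% of all genes), and 0 of 8 had an unadjusted p under 0.05 (5.14% of all genes). Libraries with equal numbers deviated together within a genotype, so each PI3Kdi comparison was also fitted with that pair as a block, which called 2.57% of all genes and again 0 of the 8. Nor did the libraries of any member separate by PI3Kdi in WT CTL (0 of 8, against 4.43% of all genes higher and 5.81% lower).

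Icos had the largest difference with PI3Kdi in WT CTL. It was 54.7, 33.5 and 27.5 FPKM without and 60.8, 45.2 and 48.2 FPKM with PI3Kdi. The groups overlapped, but the treated library was the higher of each pair, by 0.15, 0.43 and 0.81 on the log2 scale. The log2 fold change was 0.46 ± 0.24 (SE), with an adjusted p of 1.0 by limma without the block and 0.034 with it, at a fold of 1.38 that stayed under 1.5. With the block, 1 of 8 members reached an adjusted p under 0.05 at any fold, against 7.41% of all genes. Leaving out 1 library at a time put that p at 0.05 or above in 5 of 12 cases, namely WT replicate 2, WT replicate 3 and each WT+PI3Kdi library, with a range of 0.0073 to 0.20. The log2 fold change ranged from 0.28 without WT replicate 3 to 0.65 without WT replicate 1, where Icos was called.

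Cd27 supports survival and memory formation of CD8 T cells through CD70. In WT CTL it was 5.88, 10.2 and 9.79 FPKM, and 7.22, 12.7 and 12.04 FPKM with PI3Kdi. The groups overlapped, while the log2 pair differences of 0.29, 0.32 and 0.30 were close to each other. Its log2 fold change was 0.30 ± 0.38 (adjusted p = 1.0 by limma, 0.25 with the block).

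Cd28, the receptor of the primary costimulatory signal, was 39.4, 24.6 and 18.7 FPKM in WT CTL and 36.6, 28.3 and 22.5 FPKM with PI3Kdi. The pairs did not move one way (-0.11, 0.20 and 0.26), and the log2 fold change of 0.12 had a 95% interval of -0.15 to 0.39 with the block. Cd226, which binds the poliovirus receptor Pvr on target cells, was 9.79, 7.30 and 6.50 FPKM without and 8.90, 6.52 and 5.40 FPKM with PI3Kdi. It was the only member lower in all 3 pairs (1 of 8, against 29.5% of all genes), with a log2 fold change of -0.19 ± 0.21 (adjusted p = 1.0 by limma, 0.22 with the block).

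Tnfrsf9, a receptor induced by antigen stimulation, was 329.7, 341 and 296 FPKM without and 275, 343 and 328 FPKM with PI3Kdi. Tnfrsf18, whose product GITR costimulates effector cells, was 72.4, 87.5 and 82.9 FPKM and then 69.6, 100.6 and 99.98 FPKM. For both genes replicate 1 was lower with PI3Kdi and the other replicates were higher, and the groups overlapped.

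Tnfrsf4 was 3.85, 6.38 and 6.60 FPKM without and 4.73, 6.78 and 6.75 FPKM with PI3Kdi. Tnfrsf1b, the TNF receptor without a death domain, was 51.5, 34.3 and 34.1 FPKM and then 58.5, 35.2 and 44.0 FPKM. Both were higher in all 3 pairs, as were Cd27 and Icos (4 of 8, against 16.7% of all genes). The log2 fold changes of these TNFR members were -0.03 for Tnfrsf9, 0.14 for Tnfrsf18, 0.14 for Tnfrsf4 and 0.20 for Tnfrsf1b, and their lowest adjusted p with the block was 0.22. Over the 8 members the median log2 fold change was 0.14, beside -0.04 over all genes.

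The same exposure in KO CTL asked what remained without FOXO1. No member was called without the block (0 of 8, against 0.0452% of all genes), and 1, Tnfrsf18, had an unadjusted p under 0.05 (5.17% of all genes). With the block 1 of 8 was called, Cd27, which rose (2.79% of all genes, 1.82% higher). At any fold, the block gave 3 members with an adjusted p under 0.05, all higher, against 6.02% of all genes that were higher at that p.

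Cd27 was 5.99, 4.5 and 11.4 FPKM in KO CTL and 9.33, 9.53 and 19.3 FPKM with PI3Kdi. Replicate 3 was the highest of both groups, and the groups overlapped because its untreated library lay above 2 treated ones. Within pairs the log2 differences were 0.63, 1.07 and 0.75. The log2 fold change was 0.82 ± 0.38 without the block (adjusted p = 0.93 by limma) and 0.82 ± 0.15 with it (adjusted p = 0.0076), a fold of 1.76. With the block the adjusted p went to 0.056 without KO replicate 2 and to 0.054 without KO+PI3Kdi replicate 3, and stayed at 0.045 or below in the other 10 of 12 cases.

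Tnfrsf18 was 52.2, 52.1 and 68.0 FPKM in KO CTL and 69.9, 73.4 and 93.5 FPKM with PI3Kdi. Its libraries did not overlap, and it was the only member of which this held (1 of 8, against 5.28% of all genes that were higher in this way). Its pair differences of 0.42, 0.49 and 0.46 lay close together. The log2 fold change was 0.46 ± 0.17 (adjusted p = 0.84 by limma) and 0.46 ± 0.08 with the block (adjusted p = 0.0051, and at most 0.040 with any 1 library left out). At a fold of 1.37 it was not called.

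Tnfrsf4, which lies 9551 bp from Tnfrsf18 on chromosome 4, was 4.72, 5.30 and 6.66 FPKM in KO CTL and 6.58, 8.51 and 7.76 FPKM with PI3Kdi. The treated library was higher in each pair, by 0.47, 0.67 and 0.22, although KO replicate 3 lay above KO+PI3Kdi replicate 1. The log2 fold change was 0.45 ± 0.22 (adjusted p = 0.93 by limma, 0.022 with the block). With the block its adjusted p was 0.05 or above without KO replicate 1, KO replicate 2 or KO+PI3Kdi replicate 2 (up to 0.14). The 4 measured protein-coding genes nearest to the pair were B3galt6, Sdf4, 9430015G10Rik and Rnf223. Their log2 fold changes in this comparison were -0.09 to 0.23, with adjusted p of 0.066 or more by limma with the block. The antisense gene Gm16008, which overlaps Tnfrsf18, had a log2 fold change of 0.62 at a mean of 0.439 FPKM (adjusted p = 0.93 by limma, 0.10 with the block). These neighbours were chosen after the values of the pair were seen.

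The main axis of variation between libraries (47.7% of the variance over genes at 1 FPKM or more) moved with PI3Kdi in KO CTL: each treated library scored lower than its pair, from 10.7 to -2.45, from 14.2 to -6.85 and from -25.8 to -36.6. Cd27 and Tnfrsf4 had Pearson correlations of -0.81 and -0.84 with that axis over the 12 libraries, and its part in their differences was not tested. The summed B cell markers were at 4.48 to 6.88 FPKM in KO and 4.31 to 6.36 FPKM in KO+PI3Kdi libraries.

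Tnfrsf9 was 286, 258 and 240.1 FPKM in KO CTL and 320.5, 299.7 and 264 FPKM with PI3Kdi. It was higher in each pair but by a log2 fold change of only 0.17 (adjusted p = 0.93 by limma, 0.13 with the block), and the groups overlapped. Tnfrsf1b was 34.4, 42.3 and 30.2 FPKM and then 37.5, 39.7 and 34.6 FPKM, with replicate 2 lower and the others higher.

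Icos was 23.9, 25.2 and 18.6 FPKM in KO CTL and 25.0, 30.2 and 20.1 FPKM with PI3Kdi, a log2 fold change of 0.15 (95% interval -0.11 to 0.40 with the block). Cd28 was 17.4, 17.5 and 10.2 FPKM and then 15.5, 15.2 and 9.04 FPKM. It was the only member lower in all 3 pairs of KO CTL (1 of 8, against 26.4% of all genes), by 0.17, 0.20 and 0.17, and it was not called (adjusted p = 0.35 by limma with the block). Cd226 was 7.56, 6.82 and 8.58 FPKM and then 8.30, 6.59 and 9.39 FPKM, and its groups overlapped. In all, 5 of 8 members were higher in all 3 pairs (23.1% of all genes), and the median log2 fold change was 0.16, beside -0.02 over all genes.

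Whether the response to PI3Kdi differed between genotypes was tested as the difference of the log2 fold changes. No member was called (0 of 8, against 0% of all genes without the block and 0.0226% with it). Without the block 0 of 8 had an unadjusted p under 0.05 (1.51% of all genes), and with it 2 of 8 did (10.8% of all genes). These were Cd27, whose difference was 0.52 (95% interval 0.05 to 0.98 with the block, adjusted p = 0.40 by limma), and Tnfrsf18, at 0.32 (interval 0.08 to 0.56, adjusted p = 0.30). The differences of Icos and Cd28 were -0.31 and -0.30, with intervals of -0.68 to 0.05 and -0.68 to 0.09 with the block. Responses in the genotypes were thus not shown to differ for any member. Precision weights on estimated reads (voom) with the block called 0 of 8 for this difference (0.0452% of all genes), 0 of 8 for PI3Kdi in WT CTL (2.68%) and 1 of 8, Cd27, for PI3Kdi in KO CTL (3.35%).

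**Figure D2:**
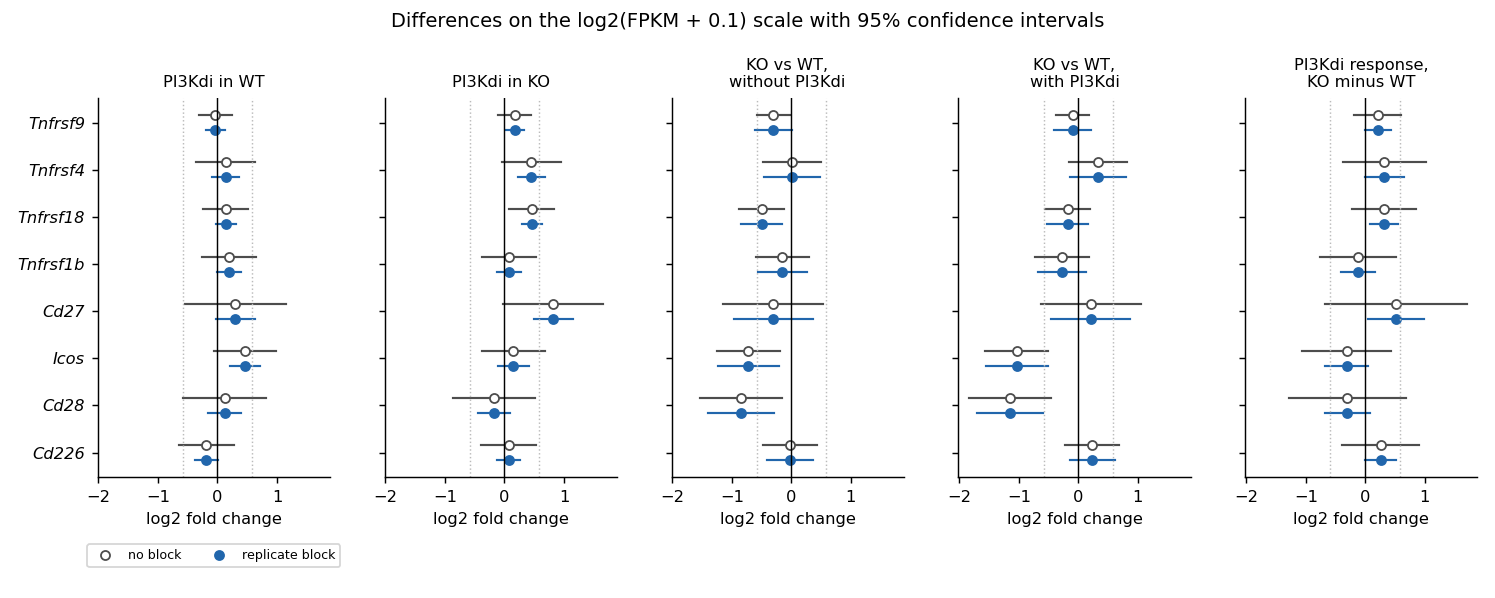
Log2 fold change (horizontal axis, log2(FPKM + 0.1) scale) of each receptor in 5 comparisons, with 95% confidence intervals as lines. Open grey points are the fit without and filled blue points the fit with the replicate block, and dotted lines mark a fold of 1.5. The interval of Cd27 for PI3Kdi in KO CTL is 0.49 to 1.14 with the block, and those of Icos and Cd28 between genotypes with PI3Kdi are -1.56 to -0.51 and -1.84 to -0.45 without it.

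Comparison of KO with WT CTL addressed what FOXO1 loss did to the receptors. Without PI3Kdi 0 of 8 members were called (0.331% of all genes), and 4 had an unadjusted p under 0.05, all lower (4.72% of all genes were lower at that p). The same 4, Cd28, Icos, Tnfrsf18 and Tnfrsf9, had KO libraries that lay below all WT libraries (4 of 8, against 6.79% of all genes lower in this way). With PI3Kdi 0 of 8 were called (1.45% of all genes) and 2, Cd28 and Icos, had an unadjusted p under 0.05 (6.03% of all genes lower at that p). The same pair had libraries that did not overlap (2 of 8, against 7.90%).

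Cd28 ranged from 18.7 to 39.4 FPKM in the 6 WT libraries and from 9.04 to 17.5 FPKM in the 6 KO libraries. It was the only member whose genotypes did not overlap over both treatments. Without PI3Kdi the log2 fold change was -0.85 ± 0.32 (adjusted p = 0.55 by limma, 0.36 with the block). With PI3Kdi it was -1.14 ± 0.32, which is 2.21 times lower in KO CTL (adjusted p = 0.14, 0.054 with the block).

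Icos, which is induced on activated T cells, ranged from 27.5 to 60.8 FPKM in WT and from 18.6 to 30.2 FPKM in KO libraries. The overlap came from WT replicate 3 without PI3Kdi, which lay below KO+PI3Kdi replicate 2. Without PI3Kdi the log2 fold change was -0.72 ± 0.24 (adjusted p = 0.41 by limma, 0.48 with the block). With PI3Kdi it was -1.04 ± 0.24, which is 2.05 times lower (adjusted p = 0.065 in both fits). Leaving out 1 library at a time without the block moved the latter p between 0.015 and 0.25, under 0.05 in 2 of 12 cases, and that of Cd28 between 0.081 and 0.44. Icos was called without WT replicate 1 (adjusted p = 0.015) and without WT replicate 3 (0.045), both of which lie outside the 6 libraries compared and bear only on the shared estimate of spread. With the block Icos was called without the same libraries (0.017 and 0.023) and Cd28 without WT replicate 1 (0.034).

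The voom fit with the replicate block put both under the threshold with PI3Kdi, at an adjusted p of 0.037 for Icos and 0.029 for Cd28 by limma (2 of 8 called, against 1.21% of all genes), and 0 of 8 without PI3Kdi (0.384%). The block without voom called 0 of 8 in either comparison (1.18% of all genes with and 0.233% without PI3Kdi). Some B cell markers moved with genotype too. The 3 of 8 B cell markers in the table summed to 11.4 to 15.6 FPKM in WT, 15.3 to 19.5 in WT+PI3Kdi, 4.48 to 6.88 in KO and 4.31 to 6.36 in KO+PI3Kdi libraries. Ighm, which made up most of the sum in WT libraries, was lower in KO CTL with and without PI3Kdi (log2 fold changes -2.38 and -1.60, adjusted p = 0.00083 and 0.015 by limma), Igkc only with it (-4.43, adjusted p = 0.0025, and -1.94, 0.24, without), and Cd79b passed in neither (-0.28 and -0.51). Ms4a1, Cd79a, Ighd and Pax5 were among the B cell markers not in the table, and the part of such cells in the genotype differences was not tested.

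The 2 CD28 family members are neighbours on chromosome 1, at chr1:60716800-60773359 and chr1:60977927-61000320, with Ctla4, the inhibitory receptor for the same ligands as CD28, between them. The gaps are 113640 bp from Cd28 to Ctla4 and 62094 bp from Ctla4 to Icos. Ctla4 was 15.9, 15.2 and 9.05 FPKM in WT and 5.53, 3.76 and 4.6 FPKM in KO CTL, and 21.4, 32.7 and 25.0 against 8.63, 7.83 and 6.76 FPKM with PI3Kdi. Its genotypes did not overlap under either treatment, with log2 fold changes of -1.48 (adjusted p = 0.019 by limma, 0.12 with the block) and -1.74 (0.0029, 0.020 with the block). The nearest measured protein-coding genes on either side were Abi2, Raph1, Ino80d and Ndufs1. Their log2 fold changes were -0.10, -0.46, -0.20 and -0.10 with PI3Kdi and -0.23, -0.12, -0.22 and -0.01 without it, and none was called. On the left Raph1 ends at chr1:60567104. On the right Ino80d starts at chr1:62958418, which is much farther from Icos than Icos is from Ctla4. The flanking genes were chosen after the values of the 3 receptors were seen.

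**Figure D3:**
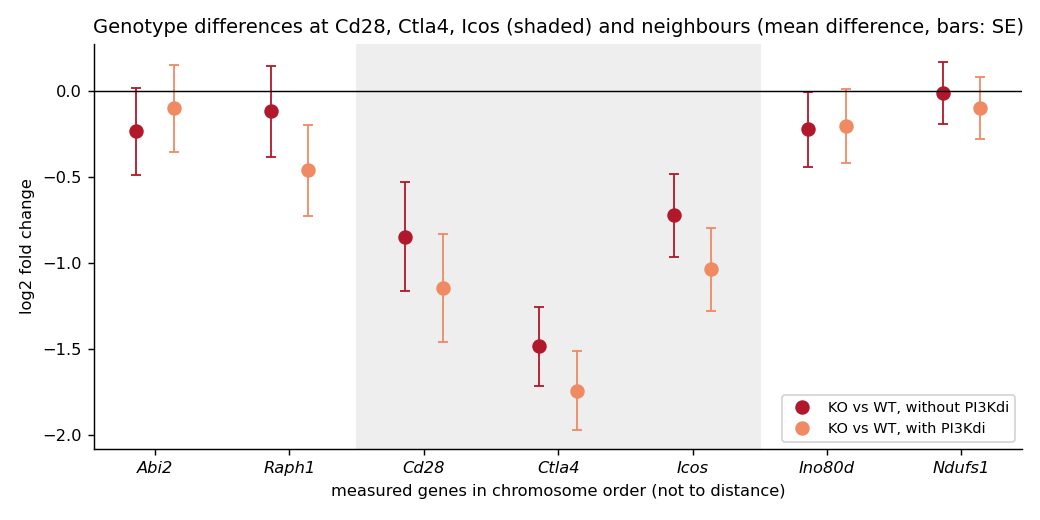
Log2 fold change between KO and WT CTL (vertical axis, error bars are SE of the fit without the block), without (dark) and with (light) PI3Kdi. Genes are Cd28, Ctla4, Icos (shaded) and the nearest measured protein-coding genes on each side, in chromosome order. The 3 receptor genes lie at -0.72 or lower and the 4 flanking genes at -0.46 or higher. Spacing does not follow distance, and the genes on the right lie far from Icos.

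Tnfrsf18 was 57.4 ± 9.14 FPKM in KO and 80.9 ± 7.73 FPKM in WT CTL (n = 3 each), a log2 fold change of -0.50 ± 0.17 (adjusted p = 0.45 by limma). With PI3Kdi its genotypes overlapped, at 78.9 ± 12.7 against 90.1 ± 17.7 FPKM (log2 fold change -0.18). Tnfrsf9 was 261 ± 22.9 against 322 ± 23.5 FPKM without PI3Kdi (-0.30 ± 0.13, adjusted p = 0.66) and overlapped with it (-0.10).

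Tnfrsf4, Tnfrsf1b, Cd27 and Cd226 overlapped between genotypes under both treatments. Their log2 fold changes lay between -0.30 (Cd27) and 0.01 (Tnfrsf4) without and between -0.27 (Tnfrsf1b) and 0.33 (Tnfrsf4) with PI3Kdi. The intervals of Cd27 were wide, -1.15 to 0.54 without and -0.63 to 1.05 with PI3Kdi, so differences of about the fold threshold in either direction were not detectable at this spread. The median log2 fold change of the 8 members was -0.30 without and -0.14 with PI3Kdi, beside -0.01 and 0.01 over all genes.

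The members differed in what their variation over the 12 libraries followed. Genotype held 64.9% of the sum of squares of Icos and 63.9% of that of Cd28. Differences between pairs of libraries of 1 genotype held 84.9% for Cd226, 70.2% for Tnfrsf1b, 66.3% for Cd27 and 57.0% for Tnfrsf4. PI3Kdi held the largest shares for Cd27 (26.4%), Tnfrsf18 (23.9%) and Tnfrsf4 (22.6%), and the smallest for Cd28 (0.056%). Tnfrsf9 varied least, over a 1.43-fold range between its lowest and highest library, and Cd28 and Cd27 varied most, over 4.36-fold and 4.29-fold ranges.

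**Figure D4:**
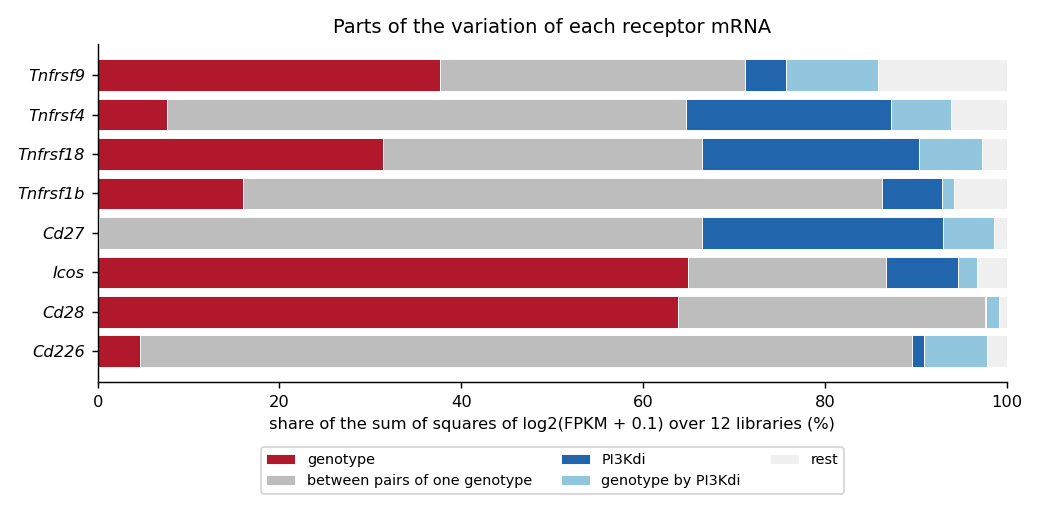
Share of the sum of squares of log2(FPKM + 0.1) over 12 libraries (horizontal axis, %) for each receptor, split into genotype, pairs of libraries within a genotype, PI3Kdi, genotype by PI3Kdi, and the rest. Genotype is the largest part for Icos (64.9%) and Cd28 (63.9%), and pairs are for Cd226 (84.9%).

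After removal of group means, 2 sets of members deviated in opposite directions between libraries. Pearson correlations of the deviations were 0.91 for Icos with Cd28, 0.86 for Tnfrsf1b with Icos, 0.93 for Cd27 with Tnfrsf18 and 0.76 for Tnfrsf4 with Tnfrsf18. Across the sets they were -0.91 for Cd27 with Cd28 and -0.85 for Tnfrsf18 with Cd28. The 12 points include pairs of libraries that deviate together. With group differences kept, the main axis of variation had correlations of 0.84 with Cd28, 0.75 with Tnfrsf1b and 0.67 with Icos. Those with Cd27, Tnfrsf4 and Tnfrsf18 were -0.81, -0.84 and -0.43. Such values are not directly comparable with the correlations of deviations. WT replicate 1, at one end of that axis (37.5), had the most Icos, Cd28, Tnfrsf1b and Cd226 and the least Cd27 and Tnfrsf4 of the 3 WT libraries. KO+PI3Kdi replicate 3, at the other end (-36.6), had the most Cd27 and the least Cd28 of all 12.

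Among 10369 genes at a mean of 1 FPKM or more, the closest patterns over the 12 libraries were those of Itgb3 for Icos (r = 0.99), Nsa2 for Tnfrsf4 (r = 0.98), Armcx4 for Cd28 (r = 0.98), Lmbr1l for Cd27 (r = 0.97), Elmsan1 for Tnfrsf1b (r = 0.97) and Fbxl12 for Tnfrsf18 (r = 0.97). The second were Tab2 for Icos (r = 0.98), Zfas1 for Tnfrsf4 (r = 0.95), Arhgap18 for Cd28 (r = 0.97), Pts for Cd27 (r = 0.96), Mfsd6 for Tnfrsf1b (r = 0.96) and Gm36723 for Tnfrsf18 (r = 0.96). The best matches were weaker for Cd226 (Suco, r = 0.90, and Atp8a1, r = 0.87) and Tnfrsf9 (Gm38220, r = 0.88, and Btg1, r = 0.87). They are a description of these libraries, picked as the highest of many.

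Of the ligands, 8 of 11 were in the table and 0 were called in any comparison, with or without the block. The most abundant were Lta and Tnf, both ligands of TNFR2, at means of 230.2 and 70.4 FPKM over the 12 libraries, followed by Icosl at 7.49 FPKM. Tnfsf9, Tnfsf4, Cd80, Cd86 and Pvr had means of 1.59 to 4.26 FPKM, well below Lta and Tnf. Tnfsf18, Cd70 and Nectin2 were not in the table. The median log2 fold change of the ligands between KO and WT without PI3Kdi was -0.38, beside -0.01 over all genes. In that comparison 2 of 8 ligands were above 0, against 47.3% of all genes. Between genotypes with PI3Kdi the median was -0.19 (2 of 8 above 0, against 51.0%). For PI3Kdi it was -0.12 in WT (1 of 8, against 39.9%) and 0.07 in KO CTL (7 of 8, against 46.6%). For the difference of responses 8 of 8 were above 0 (54.7% of all genes).

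Of 21 other TNF receptor genes, 16 were in the table. The most abundant were Tnfrsf8 (CD30), Tnfrsf1a and Tnfrsf13b, at means of 41.3, 15.05 and 13.8 FPKM, and none of these was called. Tnfrsf26 rose with PI3Kdi in both genotypes, by log2 fold changes of 1.04 in WT (adjusted p = 0.010 by limma) and 0.99 in KO CTL (0.029), and was lower in KO by -1.15 without and -1.20 with PI3Kdi (0.0044 and 0.00083). Tnfrsf23 was lower in KO CTL by -2.20 and -2.59 (adjusted p = 0.0077 and 0.00096), and Tnfrsf22 by -2.14 with PI3Kdi (0.0020). Only with the block, Tnfrsf22 and Tnfrsf23 rose with PI3Kdi in WT CTL (1.06 and 1.30), and Tnfrsf23 and Tnfrsf11a in KO CTL (0.90 and 0.93). Tnfrsf22, Tnfrsf23 and Tnfrsf26 are related genes, and whether reads could match more than 1 of them was not examined. Their single values are therefore treated as uncertain.

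All 25 genes of TRAF and NF-kB signalling were in the table and 0 were called in any comparison in either fit. Bcl2l1, a survival gene, was the most abundant (48.9 FPKM), followed by Nfkb1 (37.2 FPKM) and Rela (34.8 FPKM). Their median log2 fold changes ranged from -0.10 (KO against WT without PI3Kdi) to 0.09 (PI3Kdi in KO CTL). All 17 genes of CD28 and ICOS signalling were present, and Lck (244 FPKM) and Pik3cd, which encodes p110δ itself (153 FPKM), were the most abundant. Only the adaptor gene Lcp2 was called, lower in KO CTL with PI3Kdi by -0.64 with the block (adjusted p = 0.043 by limma).

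Of 7 inhibitory receptors and relatives, all in the table, Ctla4 was called as given above, and Tigit, which competes with Cd226 for Pvr, was lower in KO CTL with PI3Kdi by -0.88 (adjusted p = 0.013 by limma). Only with the block, Ctla4 rose with PI3Kdi in both genotypes (0.998 in WT, adjusted p = 0.0025, and 0.74 in KO CTL, 0.014), Lag3 rose in WT CTL (0.65, adjusted p = 0.0035) and Btla in KO CTL (0.62, 0.010). Btla was at 0.10 to 0.54 FPKM. The most abundant were Cd96 and Havcr2, at means of 66.3 and 57.0 FPKM. Cd96 had libraries that did not overlap and was higher with PI3Kdi by 0.43 in WT and 0.54 in KO CTL (adjusted p = 0.40 and 0.34 by limma, 0.0021 and 0.00092 with the block), at folds of 1.35 and 1.45 that were under the call threshold. Havcr2 was not called. The median log2 fold change of the 7 with PI3Kdi was 0.40 in WT and 0.48 in KO CTL, beside 0.14 and 0.16 for the costimulatory receptors.

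**Figure D5:**
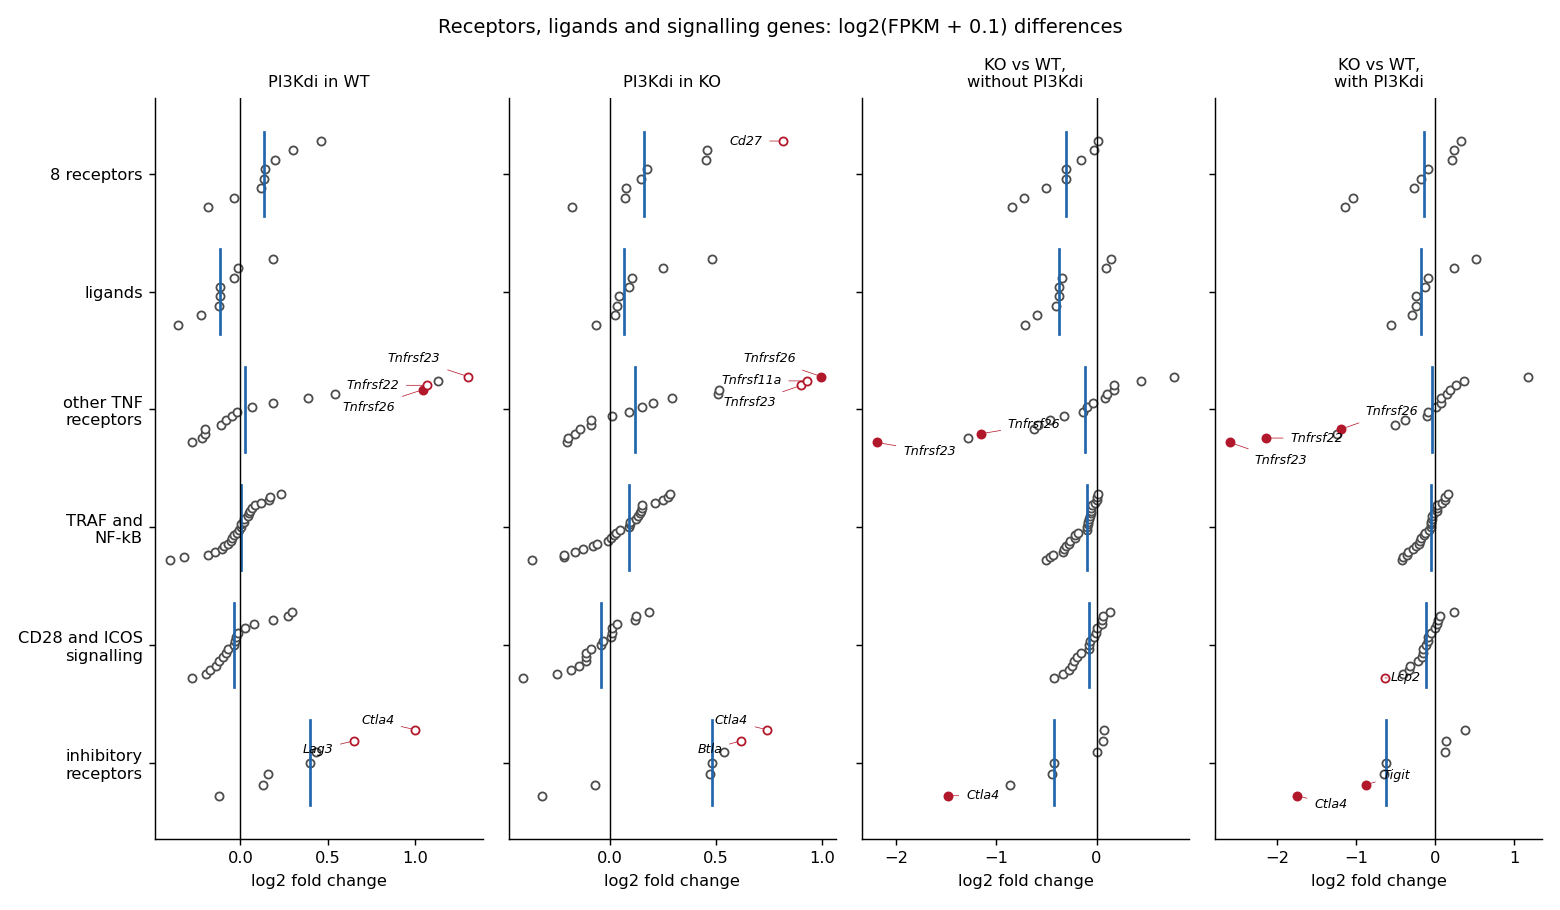
Log2 fold changes (horizontal axis) of the 8 receptors and of the ligand, signalling and inhibitory receptor genes in 4 comparisons, 1 point per gene. Filled red points were called without the block, open red points only with it, and blue bars are list medians. Among the 8 receptors only Cd27 is red, at 0.82 for PI3Kdi in KO CTL.

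Some members share their place with other genes. The antisense gene Gm16008 shares 414 exon bases with Tnfrsf18, and whether the deposited counts kept strands apart is not given in the sources used here. Gm16008 had a mean of 0.439 FPKM, against 76.8 FPKM for Tnfrsf18. Its log2 fold changes were -0.11 and 0.62 for PI3Kdi in WT and KO CTL. Between genotypes they were -0.80 without and -0.06 with PI3Kdi. Camta1 and Vamp1 overlap Tnfrsf9 and Cd27 on the other strand, and Gm37039 overlaps Icos on the same strand. Each shares 0 exon bases with its member, and their means were 0.771, 0.761 and 0.145 FPKM. Gm37039 had log2 fold changes of 0.40 and -0.05 for PI3Kdi in WT and KO CTL. Between genotypes it had -0.52 without and -0.96 with PI3Kdi. Those of Camta1 and Vamp1 lay between -0.15 and 0.30. No overlapping gene was called in these comparisons, and their part in the receptor differences was not tested.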

How the data were processed

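mRNA was sequenced from 300 ng of total RNA per library (stranded kit, 75-base reads). Per the study's methods the authors aligned reads with STAR 2.7.1a to GRCm38.p6, counted them per gene, filtered low genes, scaled with edgeR's TMM and deposited FPKM values, 1 per gene and library. The members and all gene lists were chosen with earlier results of these data known. FPKM were tested as log2(FPKM + 0.1) with limma 3.58.1 (R 4.3.3, trend) in 1 model of 4 group means over 13283 genes, since counts are not used here except as reads estimated below. Calls needed an adjusted p under 0.05 and a fold above 1.5. Per-library depth was estimated from the spacing of short genes' FPKM: 98.2% to 99.6% of held-out values were whole reads within 0.1 read (32.7% by chance). 13270 genes matched GENCODE M21. Alternatives were other pseudocounts, a filter at 1 FPKM, median and quantile scaling, voom, libraries compared alone, each library left out, and a replicate block. Equal numbers correlated by 0.60 to 0.84 in WT and 0.59 to 0.78 in KO CTL, but by -0.41 to 0.73 between genotypes, so pairs were blocked within a genotype (consensus correlation 0.757), as a property of the data. If libraries of a group are not from separate mice, p-values measure technical spread. On simulated data for PI3Kdi in WT over 13283 genes, 69% of 200 genes changed by 1 log2 unit were recovered without and 94% with the block (0 and 5 false calls). The simulated pairs were given the correlation found by the block fit, so the gain with the block was built in and does not bear on its choice. The planted change was larger than the PI3Kdi difference of any member, so recovery of differences of their size was not measured. Named genes were Foxo1, the members, list genes that were called, up to 3 most abundant genes per list, and the 2 most alike genes per member. Flanking and overlapping genes and the remaining ligands were added after their values were seen. Counting errors cover counting only. Some list genes are not reported here.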

Additional observations from a re-analysis of the deposited data

How the results depend on the processing

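Of 1352 member values under alternatives, 1309 kept direction and call, 13 gained a call, 2 lost one and 28 changed sign. Block fits with 1 library left out were set against the full block fit, and all others against the fit without the block. The 2 lost calls were of Cd27 for PI3Kdi in KO CTL, in block fits with 1 library left out. The replicate block moved genes called with PI3Kdi from 13 to 342 in WT and from 6 to 370 in KO CTL, members called in KO from 0 to 1, and genes called for the difference from 0 to 3. It changed no other member's call. A block by replicate number across genotypes, which the pairing check did not back, gave 99, 42, 440 (genotype with PI3Kdi, 2 members) and 178 genes (genotype without). Fits of only the compared libraries gave 0, 0, 94 (1 member, Icos) and 0 genes. Voom gave 22 genes for PI3Kdi in WT. Voom with the block, chosen after seeing the data, gave 355 and 445 genes for PI3Kdi in WT and KO, 6 for the difference, and 1 (Cd27) and 2 (Icos and Cd28) members for PI3Kdi in KO and genotype with PI3Kdi. Between genotypes without PI3Kdi, Tnfrsf4 changed sign with voom (-0.042, and -0.096 with the block) and Cd226 with median centring (0.0048) and quantile scaling (0.0028). These values lie near 0, and the cause was not tested.

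Leaving out each library gave 1 to 10 genes for PI3Kdi in WT, 0 to 4 for PI3Kdi in KO, 111 to 196 for genotype with PI3Kdi (0 to 1 member) and 8 to 41 without. With the replicate block, also chosen after seeing the data, the ranges were 0 to 1 member for PI3Kdi in WT, 185 to 480 genes and 0 to 1 member in KO, 83 to 170 genes and 0 to 2 members for genotype with PI3Kdi, 13 to 39 genes without, and 1 to 16 genes for the difference. Log2 fold changes that changed sign on leaving out a library ranged, for PI3Kdi in WT, from -0.098 to 0.061 (Tnfrsf9, -0.12 to 0.075 with the block), -0.11 to 0.31 (Tnfrsf4) and -0.12 to 0.41 (Cd28). For PI3Kdi in KO they ranged from -0.035 to 0.21 (Tnfrsf1b), -0.44 to 0.073 (Cd28) and -0.042 to 0.21 (Cd226). Between genotypes they ranged from -0.13 to 0.39 for Cd27 with PI3Kdi. Without it the ranges were -0.23 to 0.15 for Tnfrsf4 (-0.11 to 0.10 with the block), -0.28 to 0.044 for Tnfrsf1b and -0.15 to 0.14 for Cd226 (-0.051 to 0.0021 with the block). For the difference Tnfrsf1b ranged from -0.32 to 0.071.

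Limits are 3 libraries a group, a spread between cultures larger than most PI3Kdi differences, and estimated rather than deposited read counts. Pairing rests on the data and not on a label.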
